A study of Mus musculus with 6 samples.

Results

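The 34 genes described here encode the enzymes that build triglycerides and phospholipids in the liver. They were chosen by name as glycerolipid acyltransferases, lipins, diacylglycerol acyltransferases and enzymes of phospholipid head groups and acyl chains. All 34 were found by symbol among the 55536 genes counted. Their mRNA was compared in liver of CREBH-KO mice, which lack the liver transcription factor CREBH encoded by Creb3l3, and of WT mice, with 3 RNA-seq libraries per genotype. All animals had fasted overnight for 14 h, so both groups share the fast and no fed group was compared. The sources used here do not give the strain, age or sex of the mice or the exons the knockout lacks, and although the submitters describe 3 independent samples per genotype, separate mice are not named, so p-values measure only the spread between these samples, which may be technical.

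Both lipid classes start from glycerol 3-phosphate, which is acylated in steps to phosphatidic acid. Lipins remove the phosphate to give diacylglycerol, from which the DGAT enzymes make triglyceride and the CDP-choline and CDP-ethanolamine (Kennedy) branches make phosphatidylcholine and phosphatidylethanolamine. In hepatocytes these lipids coat and fill VLDL particles and lipid droplets, and PEMT supplies part of the phosphatidylcholine by methylating phosphatidylethanolamine.

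Reads counted in genes numbered 28106243 to 34146918 in CREBH-KO libraries and 31679996 to 39288819 in WT libraries. The hepatocyte marker Alb stood at 52560 to 57680 normalised read counts scaled to the effective library size (CPM) in CREBH-KO and 43460 to 56610 CPM in WT. The 8 hepatocyte markers, with Alb the most abundant, summed to 72190 to 78190 CPM in CREBH-KO and 62560 to 76410 CPM in WT. They did not move together: 3 of the 8 had a log2 fold change below 0. Only Apob passed, and it was lower in CREBH-KO (-0.363, edgeR adjusted p = 0.0419). Creb3l3 had 57.4, 45.0 and 46.4 CPM in CREBH-KO and 466.7, 495.9 and 495.0 CPM in WT, which is the direction of the labels. For CREBH-KO 2 and CREBH-KO 3 the labels report a lost file of first reads. With CREBH-KO 1 alone against WT, the log2 fold change was 0.80 for Chka, 0.25 for Etnk1, -0.81 for Etnk2 and -0.41 for Dgat2. It was -1.735 for Mogat1, -0.318 for Agpat3, -0.415 for Lpin3, -0.339 for Pcyt1a, -0.289 for Ptdss1 and -0.348 for Lpcat3. In the same fit Lpgat1 and Pcyt2 were also below 0 (at most -0.988 and -0.659 under any alternative). This fit assumes that the lone library varies like WT. Because CREBH-KO 1 is also part of the full fit, it is no independent check of the 12 genes that passed below. Of 9 marker lists for other cell types or proliferation, 2 had sums that did not overlap. That of stellate cells and fibroblasts (8 genes, none at 0) gave 279.2 to 314 CPM in CREBH-KO and 219.8 to 266 CPM in WT. Of its genes only Dcn passed the test, with a log2 fold change of 0.56 ± 0.09 (SE, edgeR adjusted p = 0.00552), and the part of these cells in the results below was not tested. The adipocyte list (6 genes, its defining genes Lep and Retn at 0 in every library) gave 10.04 to 12.3 CPM in CREBH-KO and 15.6 to 39.2 CPM in WT. Its lower sum came from Cidec, a lipid droplet gene that liver also expresses (3.14 to 4.25 CPM in CREBH-KO and 10.8 to 33.2 CPM in WT), while Fabp4 was higher in each CREBH-KO library (6.79 to 7.96 CPM) than in WT (4.71 to 6.01 CPM). In whole liver, fewer cells of a type and less RNA per cell cannot be told apart.

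Of the 34 genes, 33 had enough counts to be tested, and 12 of these (36.4%) passed at an adjusted p under 0.05, where 10.4% of all 15589 tested genes did (quasi-likelihood test of edgeR, p-values adjusted over all genes by Benjamini-Hochberg). Of the 33, 10 (30.3%) fell, against 6.46% of all genes, and 2 (6.06%) rose, against 3.91%. The genes were chosen with earlier results of these data known, so these shares describe the set and do not test it. The median log2 fold change of the 33 genes was -0.18, beside 0.02 over all genes tested. Lpgat1, Pcyt2, Etnk2 and Chka kept their calls without any 1 library, and Mogat1 and Etnk1 lost theirs without some of them. The other 6, with smaller falls, passed neither with library size alone nor with upper-quartile factors, where 2 rose and 4 fell. The CREBH-KO and WT libraries did not overlap for 16 of the 33 genes, while this held for 30.6% of all genes tested.

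The 4 genes whose calls held without any 1 library lie apart in the GRCm38 annotation, except that Lpgat1 and Etnk2 share a chromosome: Lpgat1 (ENSMUSG00000026623) at chr1:191717834-191784255, Etnk2 (ENSMUSG00000070644) at chr1:133363572-133380336, Pcyt2 (ENSMUSG00000025137) at chr11:120610087-120617936 and Chka (ENSMUSG00000024843) at chr19:3851773-3894369, all protein-coding. Dgat2 at chr7:99153658-99182719 and Mogat2 at chr7:99219084-99238619 are neighbours.

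**Figure D1:**
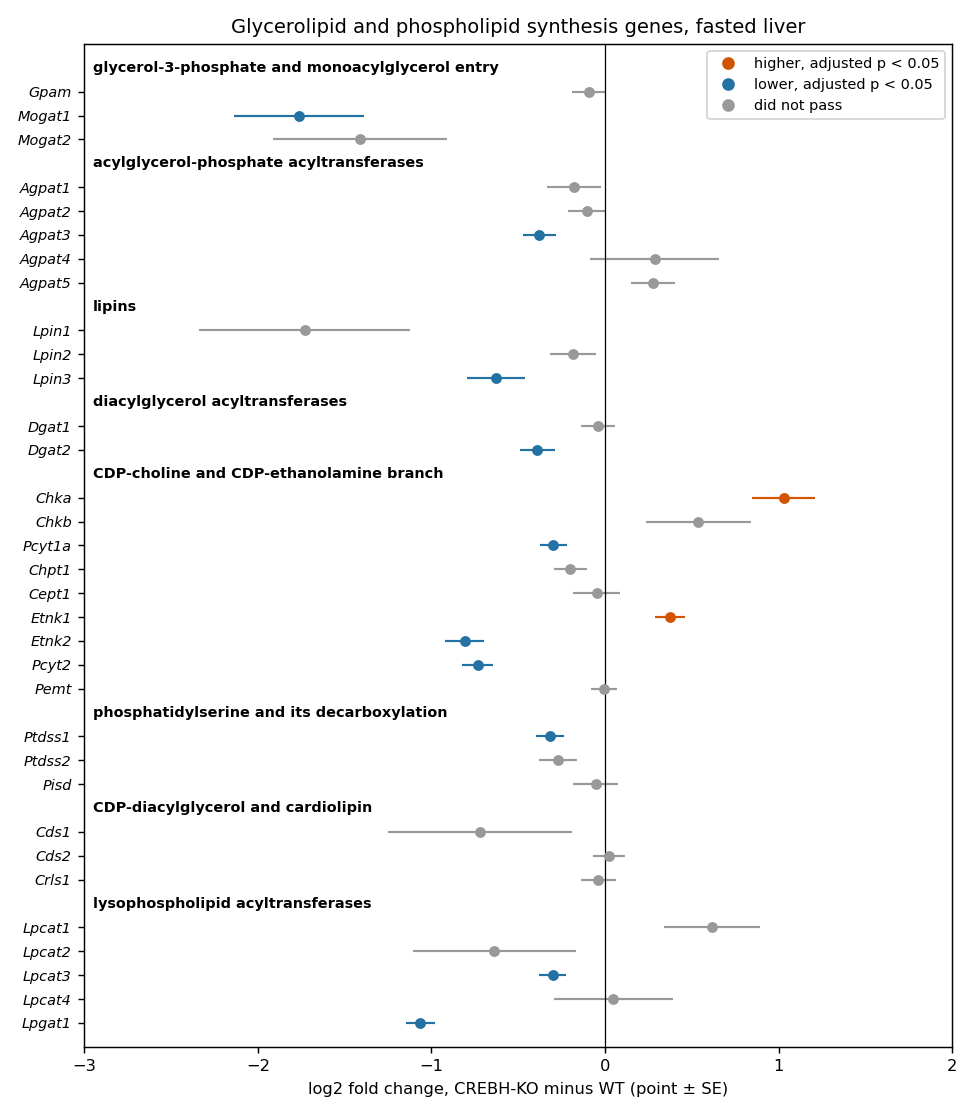
Log2 fold change (CREBH-KO minus WT, x axis) of the 33 tested genes by role, with SE as bars; orange marks genes that rose, blue those that fell and grey those that did not pass. Lpgat1 (-1.06), Etnk2 (-0.81) and Pcyt2 (-0.73) lie to the left of 0 with short bars, Chka (1.03) lies to the right, and Lpin1 has the widest bar.

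The genes spanned a wide range of abundance. Per kilobase of exonic length, 18 of the 34 exceeded 10 CPM in WT and 9 stayed below 1 CPM. Dgat2 stood highest in WT at 158.5 ± 19.9 CPM per kb, closely followed by Pcyt2 at 156.7 ± 10.5, Etnk2 at 140.2 ± 22.4 and Pemt at 116.3 ± 1.87 CPM per kb (SD, n = 3). The SDs of Dgat2, Pcyt2 and Etnk2 overlap, so their order in WT is not resolved. In CREBH-KO the same 4 genes averaged 120.9 ± 1.82 for Dgat2, 94.2 ± 6.53 for Pcyt2, 79.99 ± 1.17 for Etnk2 and 115.7 ± 5.06 CPM per kb for Pemt. Of the 5 genes most abundant in WT, 3 fell (6.46% of all genes tested did), while Pemt and Agpat2 did not pass. Mboat1, which encodes a lysophospholipid acyltransferase, was lowest, with 2, 0 and 9 counts in CREBH-KO and 3, 7 and 12 counts in WT, and was not tested.

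**Figure D2:**
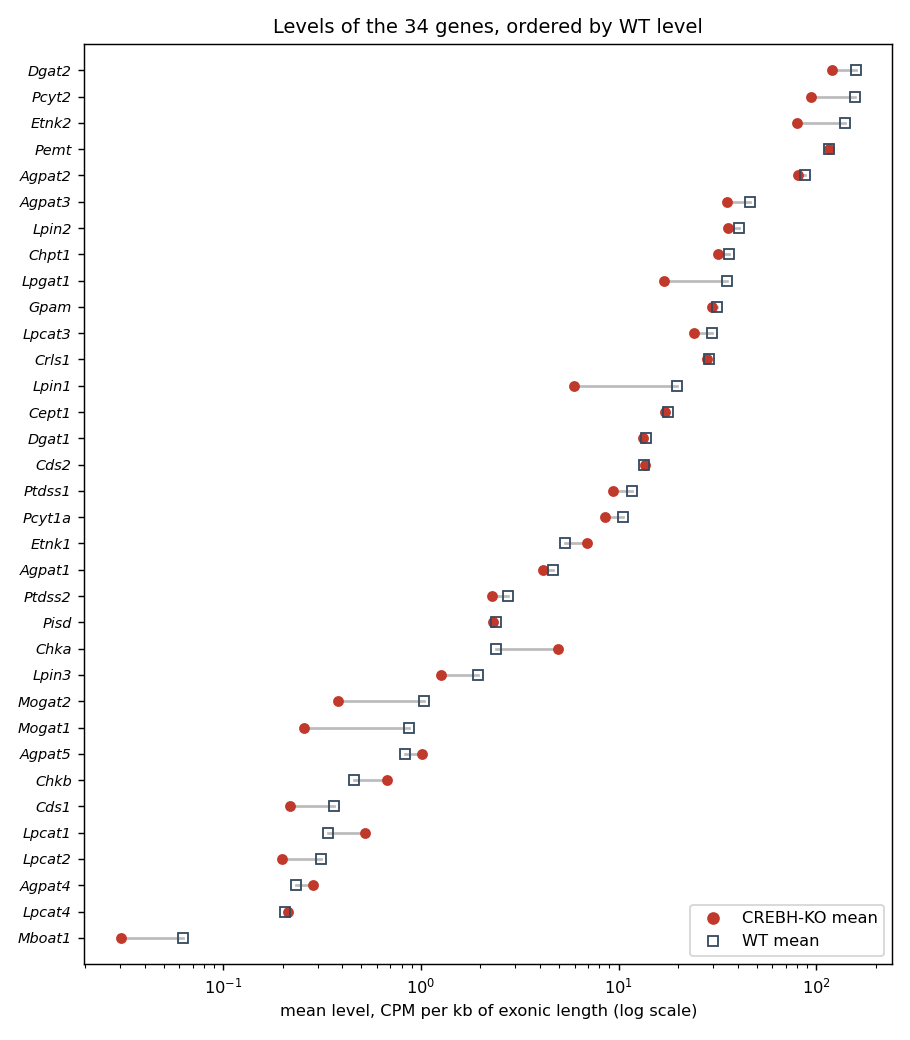
Mean level of each of the 34 genes in CPM per kb of exonic length (log x axis), ordered by the WT level, with CREBH-KO as filled circles and WT as open squares. The 4 genes at the top are Dgat2, Pcyt2, Etnk2 and Pemt, and the circles of Pcyt2 and Etnk2 lie clearly left of their squares while those of Pemt coincide.

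Of the 9 genes of the CDP-choline and CDP-ethanolamine branches, 3 fell, 2 rose and 4 did not pass. Over all genes tested, 6.46% fell and 3.91% rose, and a count from so few genes is a description. Pcyt2, whose enzyme forms CDP-ethanolamine and is the slow step of its branch, had 399.5, 387.6 and 441.7 CPM in CREBH-KO and 643.6, 667.6 and 731.6 CPM in WT. Every CREBH-KO library was below every WT library. The log2 fold change was -0.73 ± 0.09 (SE, n = 3 per group, edgeR adjusted p = 0.00161), so that the fitted level in CREBH-KO was 60.2% of that in WT. Etnk2, the ethanolamine kinase that is prominent in liver, had 371.4, 361.4 and 362.9 CPM in CREBH-KO and 566.0, 597.7 and 756.6 CPM in WT. The 3 CREBH-KO libraries were nearly equal, while WT 3 stood above the other WT libraries. Etnk2 fell by 0.81 ± 0.11 on the log2 scale (SE, edgeR adjusted p = 0.00300), to 57.1% of the WT level.

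Etnk1, the second ethanolamine kinase, went the other way. It had 91.5, 106.6 and 96.0 CPM in CREBH-KO and 76.5, 78.9 and 71.3 CPM in WT, with no overlap. The rise was 0.38 ± 0.09 on the log2 scale (SE, edgeR adjusted p = 0.0256), and it did not pass without WT 2, WT 3, CREBH-KO 2 or CREBH-KO 3 (highest adjusted p 0.0877). Since a ratio of 2 genes within a library does not depend on how libraries are scaled, the kinases were also compared by their count ratio. Etnk2 counts were 4.06, 3.39 and 3.78 times those of Etnk1 in CREBH-KO and 7.396, 7.57 and 10.6 times in WT. That ratio differed by -1.17 ± 0.18 on the log2 scale (SE), or 2.25-fold, in CREBH-KO (exact permutation test, two-sided, p = 0.1, the smallest that 3 against 3 libraries allow; adjusted p = 0.35 over 14 ratios). Per kilobase, Etnk2 still exceeded Etnk1 11.6-fold in CREBH-KO, against 26.1-fold in WT.

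**Figure D3:**
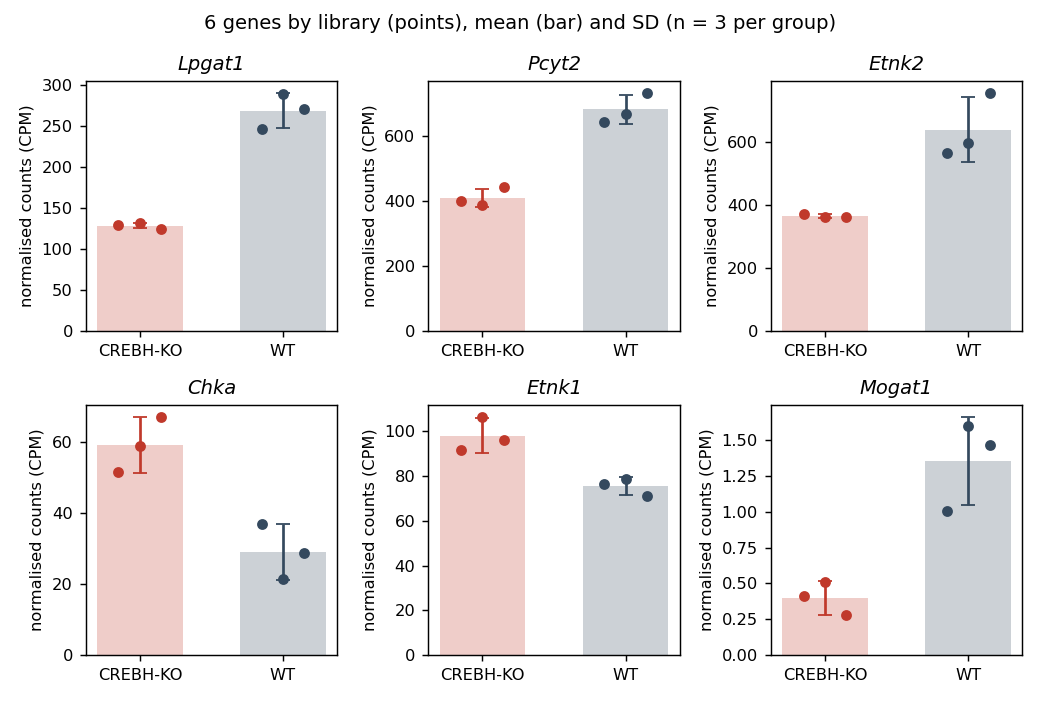
Normalised counts (CPM, y axes from 0) of Lpgat1, Pcyt2, Etnk2, Chka, Etnk1 and Mogat1, with CREBH-KO left of WT; points are libraries, bars the mean and whiskers the SD (n = 3 per group). In each of the 6 panels the points of CREBH-KO and WT do not overlap, with CREBH-KO lower for Lpgat1, Pcyt2, Etnk2 and Mogat1 and higher for Chka and Etnk1.

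In the CDP-choline branch, Chka, a choline kinase that also phosphorylates ethanolamine, rose. Its levels were 51.4, 58.9 and 67.1 CPM in CREBH-KO and 36.9, 21.3 and 28.7 CPM in WT. The lowest CREBH-KO library stood above the highest WT library, and the log2 fold change was 1.03 ± 0.18 (SE, edgeR adjusted p = 0.00886), or 2.04-fold. Its relative Chkb was scarce, at 2.37, 1.69 and 2.11 CPM in CREBH-KO and 1.84, 0.970 and 1.43 CPM in WT, and did not pass (0.54 ± 0.30, edgeR adjusted p = 0.304). Of the exonic bases of Chkb, 57.6% are shared with other annotated genes, so its counts are uncertain. Pcyt1a, whose enzyme forms CDP-choline and sets the pace of its branch, had 62.5, 67.6 and 59.8 CPM in CREBH-KO and 77.2, 79.5 and 76.7 CPM in WT. This was a fall of 0.30 ± 0.08 on the log2 scale (SE, edgeR adjusted p = 0.0402), lost without any 1 library (adjusted p up to 0.147) and with library size alone (-0.22, adjusted p = 0.135). Pcyt1a counts were 0.156, 0.174 and 0.135 times those of Pcyt2 in CREBH-KO and 0.120, 0.119 and 0.105 times in WT. The 2 groups of ratios did not overlap and differed by 0.43 ± 0.12 on the log2 scale (SE, exact permutation p = 0.1, adjusted p = 0.35).

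The enzymes that complete both branches differed little. Chpt1, the cholinephosphotransferase, had 250.4 to 272.6 CPM in CREBH-KO and 272.3 to 337 CPM in WT (log2 fold change -0.20 ± 0.09, SE, edgeR adjusted p = 0.228). Cept1, which makes both phospholipids, had 52.5 to 55.0 CPM in CREBH-KO and 46.0 to 68.9 CPM in WT (-0.05 ± 0.14, edgeR adjusted p = 0.864), with 24.9% of its exonic bases shared with other genes. For the methyltransferase gene Pemt the libraries were close to each other, at 236.5, 238.1 and 255.7 CPM in CREBH-KO and 245.6, 247.9 and 240.3 CPM in WT. Its log2 fold change was -0.01 ± 0.07 (SE, edgeR adjusted p = 0.963), with a sign that depended on the scaling (0.07 with library size alone). The ethanolamine phosphotransferase gene Selenoi, from the list of further pathway genes, had 0.02 ± 0.13 (SE, edgeR adjusted p = 0.951).

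Promoter windows of these kinase genes and of Pcyt1a are shown because their mRNAs moved in opposite directions. Each runs from 250 bases before to 50 after a RefSeq start site (GRCm38.p6), 5′ to 3′ on the gene's strand. Capitals mark matches, on either strand, to TGACG (the half-site of the cAMP response element), CCACG (a part of the ER stress element) or TCACNCCAC (a sterol regulatory element). Etnk2 lies at chr1:133363322-133363621, Etnk1 at chr6:143166980-143167279, Chka at chr19:3851523-3851822 and Pcyt1a at chr16:32430671-32430970, all on the plus strand. For Pcyt1a this is the first of 3 windows.
Etnk2: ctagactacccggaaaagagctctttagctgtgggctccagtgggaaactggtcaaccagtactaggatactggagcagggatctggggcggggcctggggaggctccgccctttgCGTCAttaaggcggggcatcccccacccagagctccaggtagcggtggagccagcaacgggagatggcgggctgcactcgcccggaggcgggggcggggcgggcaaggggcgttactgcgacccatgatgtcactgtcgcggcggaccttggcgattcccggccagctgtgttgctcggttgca
Etnk1: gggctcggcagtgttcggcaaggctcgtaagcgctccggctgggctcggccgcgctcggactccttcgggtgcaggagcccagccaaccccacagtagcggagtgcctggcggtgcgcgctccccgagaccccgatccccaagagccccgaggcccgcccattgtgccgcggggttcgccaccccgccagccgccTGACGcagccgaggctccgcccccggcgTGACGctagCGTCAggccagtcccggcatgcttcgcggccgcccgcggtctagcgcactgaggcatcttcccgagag
Chka: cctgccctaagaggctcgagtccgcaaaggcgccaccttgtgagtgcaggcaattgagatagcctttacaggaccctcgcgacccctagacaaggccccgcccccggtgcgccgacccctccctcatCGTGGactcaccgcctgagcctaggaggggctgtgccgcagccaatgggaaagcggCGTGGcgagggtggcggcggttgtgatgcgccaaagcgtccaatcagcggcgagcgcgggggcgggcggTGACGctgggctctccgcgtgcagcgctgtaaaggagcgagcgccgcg
Pcyt1a: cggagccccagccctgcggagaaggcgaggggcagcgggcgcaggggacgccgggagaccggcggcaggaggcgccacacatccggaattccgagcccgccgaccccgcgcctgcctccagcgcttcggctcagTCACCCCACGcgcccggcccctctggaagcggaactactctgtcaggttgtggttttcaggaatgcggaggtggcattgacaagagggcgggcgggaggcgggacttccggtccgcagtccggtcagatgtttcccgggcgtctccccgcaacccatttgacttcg
Etnk2 holds 1 TGACG match at position -134 from the start site, and Etnk1 holds 3, at -55, -27 and -18. Chka holds TGACG at 3 and CCACG at -123 and -67. In Pcyt1a the TCACNCCAC match at -116 overlaps a CCACG match at -111. Such short matches are common: TGACG occurs in 20.8% and CCACG in 32.8% of the 32851 windows of the table, while TCACNCCAC occurs in 1.24%. By window, 12 of the 42 windows of this set hold TGACG and 23 hold CCACG. Counted by gene, with a match in any window, 12 of the 28 genes of this set with a window hold TGACG (42.9%, against 23.0% of all genes of the table) and 17 hold CCACG (60.7%, against 35.5%). The count by gene favours genes with more windows, and this set has 42 windows for 28 genes. The whole table has 32851 windows for 27025 genes and was not limited to genes tested in this liver comparison. The E-box CACGTG occurs in 3 of the 28 (10.7%, against 8.09%), and the full element TGACGTCA in 1, Cds1 (3.57%, against 2.03%). A direct repeat known to bind PPAR with RXR occurs in 0 of the 28, against 0.0481% of all genes. In the set 11 genes have more than 1 window. The letters alone do not show binding.

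Lpgat1, which encodes an acyltransferase of lysophospholipids, had the smallest p-value of all 33 genes. It had 129, 132.0 and 125.2 CPM in CREBH-KO and 246.5, 289.6 and 271.1 CPM in WT. The spread within CREBH-KO was small (SD 3.43 CPM) and no library came near the other group. The log2 fold change was -1.06 ± 0.08 (SE, n = 3 per group, edgeR adjusted p = 1.61e-04), a 2.09-fold difference. It stayed between -1.14 and -0.99 under every alternative run and passed in each that kept more than 1 library per genotype. RefSeq lists a pair of start sites for Lpgat1. The window of the first one, at chr1:191717774-191718073 on the plus strand, is shown for the gene with the smallest p-value and holds 1 CCACG match at -65, in capitals.
Lpgat1: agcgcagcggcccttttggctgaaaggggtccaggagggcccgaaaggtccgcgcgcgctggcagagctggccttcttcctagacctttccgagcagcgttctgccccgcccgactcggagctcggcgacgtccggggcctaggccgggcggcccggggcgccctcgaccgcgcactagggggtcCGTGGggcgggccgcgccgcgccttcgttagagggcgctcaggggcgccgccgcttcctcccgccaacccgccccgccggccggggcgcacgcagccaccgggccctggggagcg

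Of the 6 lysophospholipid acyltransferases, Lpgat1 and Lpcat3 fell, 3 did not pass and Mboat1 was not tested, where 6.46% of all genes tested fell. Lpcat3, which puts polyunsaturated chains into phospholipids and is the main such enzyme of liver, had 77.6, 81.5 and 77.5 CPM in CREBH-KO and 90.9, 103 and 97.4 CPM in WT, a fall of 0.30 ± 0.08 on the log2 scale (SE, edgeR adjusted p = 0.0404). The call was lost with library size alone (-0.23, adjusted p = 0.119) and without any 1 library except WT 1 (adjusted p up to 0.162). Lpcat3 shares 10.2% of its exonic bases with a gene on the other strand. Lpcat1, known from lung surfactant, was far less abundant, with 1.87, 2.81 and 2.57 CPM in CREBH-KO and 1.86, 1.16 and 1.69 CPM in WT, and did not pass (0.62 ± 0.28, edgeR adjusted p = 0.208). The ratio of Lpcat3 to Lpcat1 counts was 41.1, 28.9 and 30.0 in CREBH-KO and 48.5, 88.1 and 57.1 in WT, without overlap (log2 difference -0.92 ± 0.30, SE, exact permutation p = 0.1, adjusted p = 0.35). Lpcat2, an enzyme of inflammatory cells, had 0.556, 0.440 and 1.01 CPM in CREBH-KO and 0.595, 0.939 and 1.62 CPM in WT and did not pass (edgeR adjusted p = 0.442). Its highest library, WT 3, also had the highest summed Kupffer cell and macrophage markers (9 genes, none at 0), at 138.6 CPM, where these sums ran from 78.2 to 96.6 CPM in CREBH-KO and from 70.0 to 138.6 CPM in WT. Sums and Lpcat2 ran in the same order across WT, but CREBH-KO 2 had the highest CREBH-KO sum (96.6 CPM) and the lowest Lpcat2 (0.440 CPM). The part of these cells in the level of Lpcat2 was not tested. Lpcat4 stayed between 0.532 and 0.644 CPM in all 6 libraries.

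On the way to triglyceride, Gpam and Gpat4, genes for the entry step of the glycerol phosphate route, did not pass. Gpam, the mitochondrial enzyme of the first acylation, had 186.0, 206 and 199.7 CPM in CREBH-KO and 183.6, 213 and 234 CPM in WT, with overlapping groups (log2 fold change -0.09 ± 0.10, SE, edgeR adjusted p = 0.610). Gpat4, the abundant enzyme of the endoplasmic reticulum for the same step, had -0.11 ± 0.10 (edgeR adjusted p = 0.528). The ratio of Gpam to Gpat4 counts was 0.602 to 0.665 in CREBH-KO and 0.595 to 0.657 in WT (exact permutation p = 0.5, adjusted p = 0.636). Gpat3, a relative best known from fat tissue and one of the further pathway genes, rose, with 24.7, 38.5 and 30.3 CPM in CREBH-KO and 22.6, 17.0 and 15.1 CPM in WT (0.77 ± 0.19, SE, edgeR adjusted p = 0.0324). Of its exonic bases, 37.4% are shared with other genes, and Gpat3 did not pass without WT 2, WT 3, CREBH-KO 2 or CREBH-KO 3 (highest adjusted p 0.121).

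Monoacylglycerol acyltransferases, which make diacylglycerol without phosphatidic acid, were scarce in both groups. Mogat1 had 0.410, 0.507 and 0.275 CPM in CREBH-KO (14, 15 and 9 counts) and 1.01, 1.596 and 1.46 CPM in WT (39, 51 and 45 counts). The groups did not overlap, and Mogat1 fell by 1.76 ± 0.37 on the log2 scale (SE, edgeR adjusted p = 0.0194), or 3.39-fold, a call that needed WT 2, WT 3 and CREBH-KO 3 (adjusted p up to 0.0844 without 1 of them). Of its exonic bases, 12.8% are shared with a gene on the other strand. Mogat2, known from the intestine, had 1.35, 0.237 and 0.520 CPM in CREBH-KO and 1.71, 2.07 and 1.92 CPM in WT. All CREBH-KO values lay below those of WT, but CREBH-KO 1 stood nearer to WT than to its own group, and the gene did not pass (-1.41 ± 0.50, edgeR adjusted p = 0.114). It passed without CREBH-KO 1 (-2.30, adjusted p = 0.0135) and in DESeq2 (adjusted p = 0.0390). The ratio of Mogat1 to Mogat2 overlapped between the groups (exact permutation p = 1).

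Of the 5 acylglycerol-phosphate acyltransferases, which make phosphatidic acid, 1 fell and 4 did not pass, where 6.46% of all genes tested fell. Agpat3 had 292.5, 267.9 and 268.2 CPM in CREBH-KO and 314, 382.5 and 379.8 CPM in WT. WT 1 was the closest to CREBH-KO, but no library overlapped, and the fall was 0.38 ± 0.10 on the log2 scale (SE, edgeR adjusted p = 0.0385). It did not pass with library size alone (-0.30, adjusted p = 0.0685) or without any 1 library except WT 1 (adjusted p up to 0.152). Agpat2, whose loss causes lipodystrophy, had 171.6, 175.1 and 173.2 CPM in CREBH-KO and 217.5, 181.9 and 159.2 CPM in WT. The CREBH-KO values lay inside the WT range (-0.10 ± 0.11, edgeR adjusted p = 0.601). The ratio of Agpat3 to Agpat2 was 1.53 to 1.70 in CREBH-KO and 1.44 to 2.38 in WT (exact permutation p = 0.4, adjusted p = 0.56). Agpat1 and Agpat2 kept a similar ratio, 13.6 to 14.5 for Agpat2 over Agpat1 in CREBH-KO and 9.50 to 16.6 in WT (exact permutation p = 1). Agpat5, a mitochondrial member, was higher in each CREBH-KO library, 10.3 to 11.2 CPM, than in WT, 7.90 to 9.62 CPM, without passing (0.28 ± 0.13, edgeR adjusted p = 0.217); 19.0% of its exonic bases are shared with other genes. Agpat4 stayed between 0.491 and 0.937 CPM.

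Lipins turn phosphatidic acid into diacylglycerol, and Lpin1 is known for its induction by fasting and glucocorticoids. Lpin1 varied more between libraries than any other gene of the set above 2 CPM: 45.6, 27.9 and 98.7 CPM in CREBH-KO and 57.2, 165.2 and 349 CPM in WT. The highest WT library held 6.10 times the lowest, and the groups overlapped. Lpin1 did not pass (-1.73 ± 0.61, SE, edgeR adjusted p = 0.111), although it did without WT 1 (-2.17, adjusted p = 0.0203) and when genes of low count were kept (adjusted p = 8.35e-08). The estimate ranged from -2.37 to -0.96 when 1 library was left out. Lpin2, which was more abundant per kilobase, had 393, 516.4 and 402 CPM in CREBH-KO and 419.8, 536.1 and 535.4 CPM in WT (-0.18 ± 0.13, edgeR adjusted p = 0.431). Lpin3 was scarce but steady, at 5.50, 4.16 and 4.35 CPM in CREBH-KO and 6.72, 7.45 and 7.51 CPM in WT. It fell by 0.63 ± 0.17 on the log2 scale (SE, edgeR adjusted p = 0.0442), a call lost with library size alone (-0.56, adjusted p = 0.0624) and without any of WT 2, WT 3, CREBH-KO 2 and CREBH-KO 3 (adjusted p up to 0.140). The ratio of Lpin1 to Lpin2 counts was 0.116, 0.0540 and 0.246 in CREBH-KO and 0.136, 0.308 and 0.652 in WT (exact permutation p = 0.2, adjusted p = 0.467).

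The last step to triglyceride is shared by DGAT1 and DGAT2, of which DGAT2 is linked to newly made fatty acids in liver. Dgat2 had 372.6, 367.2 and 378.4 CPM in CREBH-KO and 417.9, 519.1 and 528.9 CPM in WT. The 3 CREBH-KO libraries were nearly equal and below each WT library. Dgat2 fell by 0.39 ± 0.10 on the log2 scale (SE, edgeR adjusted p = 0.0400), a call lost with library size alone (-0.32, adjusted p = 0.0737) and without any 1 library except WT 1 (adjusted p up to 0.154). Dgat1 had 43.6, 42.7 and 36.0 CPM in CREBH-KO and 39.6, 41.3 and 45.1 CPM in WT, and its groups overlapped (-0.04 ± 0.10, edgeR adjusted p = 0.832). Independent of scaling, Dgat2 counts were 8.54, 8.61 and 10.5 times those of Dgat1 in CREBH-KO and 10.6, 12.6 and 11.7 times in WT. The ratios did not overlap, CREBH-KO 3 and WT 1 being nearly equal, and differed by -0.34 ± 0.12 on the log2 scale (SE, exact permutation p = 0.1, adjusted p = 0.35).

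**Figure D4:**
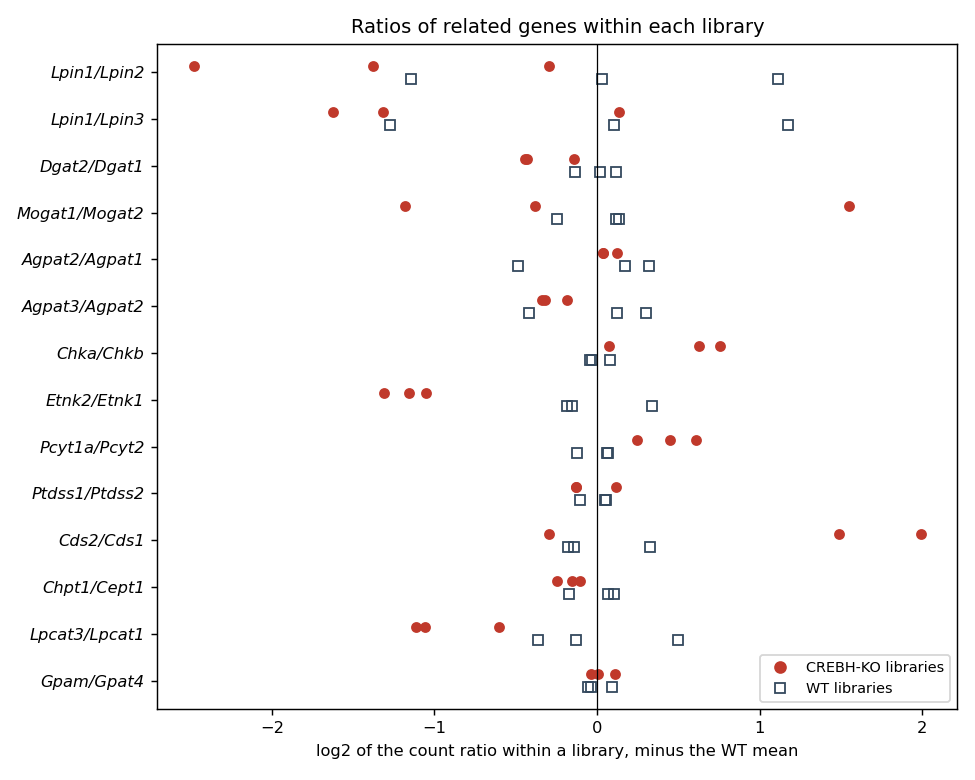
Log2 of the count ratio of 14 pairs of related genes in each library, minus the WT mean of the pair (x axis), with CREBH-KO as filled circles above WT as open squares. The circles and squares do not overlap for 4 pairs, Dgat2/Dgat1, Etnk2/Etnk1, Pcyt1a/Pcyt2 and Lpcat3/Lpcat1, and the points spread widest for Lpin1/Lpin2.

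Of the genes for phosphatidylserine, Ptdss1, which exchanges the head group of phosphatidylcholine for serine, had 41.7, 41.0 and 38.2 CPM in CREBH-KO and 48.2, 49.6 and 52.9 CPM in WT. The fall was 0.32 ± 0.08 on the log2 scale (SE, edgeR adjusted p = 0.0359), without overlap, but was not called with library size alone (-0.24, adjusted p = 0.0979) or without any 1 library except WT 1 (adjusted p up to 0.132). Ptdss2, which uses phosphatidylethanolamine, was also lower in each CREBH-KO library (11.9, 13.9 and 12.9 CPM) than in WT (14.4, 16.5 and 15.7 CPM), without passing (-0.27 ± 0.11, edgeR adjusted p = 0.162). The ratio of Ptdss1 to Ptdss2 overlapped, at 2.95 to 3.51 in CREBH-KO and 3.01 to 3.37 in WT (exact permutation p = 0.8, adjusted p = 0.933). Pisd, the mitochondrial decarboxylase that turns phosphatidylserine into phosphatidylethanolamine, had 12.3, 15.4 and 12.4 CPM in CREBH-KO and 13.9, 12.4 and 15.2 CPM in WT (-0.05 ± 0.13, edgeR adjusted p = 0.840). Pisd shares 20.9% of its exonic bases with other genes and has 2 annotated pseudogenes, so its counts are uncertain.

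None of the 3 genes leading to phosphatidylinositol and cardiolipin passed in edgeR, at an adjusted or an unadjusted p under 0.05, or in DESeq2 or limma-voom. Over all genes tested, 10.4% passed in edgeR at an adjusted p under 0.05. Cds2, the abundant CDP-diacylglycerol synthase, had 119, 133 and 119.4 CPM in CREBH-KO and 108.8, 130.6 and 126.8 CPM in WT (log2 fold change 0.02 ± 0.09, SE, edgeR adjusted p = 0.915). Crls1, the cardiolipin synthase of mitochondria, had 57.9, 60.7 and 56.3 CPM in CREBH-KO and 68.2, 58.4 and 52.9 CPM in WT (-0.04 ± 0.10, edgeR adjusted p = 0.852). The sign of Crls1 was positive with library size alone (0.04) and that of Cds2 negative without WT 1 (-0.07). Taz, which encodes the cardiolipin remodelling enzyme tafazzin, did not pass either (0.09 ± 0.08, edgeR adjusted p = 0.526). Cds1, a scarce relative of Cds2, had 1.70, 0.541 and 0.337 CPM in CREBH-KO and 1.40, 1.72 and 1.17 CPM in WT, so that CREBH-KO 1 resembled WT. Markers of bile duct cells did not move together. Among them, named after their values were seen, Epcam was high in CREBH-KO 1 and WT like Cds1, with 11.1, 3.75 and 3.76 CPM in CREBH-KO and 11.0, 12.7 and 16.7 CPM in WT. Sox9, which alone of the list passed, was higher in each CREBH-KO library, with 21.2, 15.4 and 13.3 CPM in CREBH-KO and 7.71, 6.63 and 11.4 CPM in WT (0.96 ± 0.23, SE, edgeR adjusted p = 0.0312). The summed list of 6 cholangiocyte markers, none of them at 0, was 69.6, 41.9 and 43.5 CPM in CREBH-KO and 35.9, 44.8 and 79.1 CPM in WT, and its part in the level of Cds1 was not tested. Cds1 differed by -0.72 ± 0.53 on the log2 scale (SE, edgeR adjusted p = 0.438), and passed without CREBH-KO 1 (-1.70, adjusted p = 0.0414).

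Among 58 further genes of the same pathways, 54 were tested, of which 7 fell and 2 rose (16.7% called, against 10.4% of all genes). This list was also chosen with earlier results of these data known, so the share is a description. Of 20 tested acyltransferases and acylglycerol enzymes 1 rose and 1 fell. Of 17 head-group and cardiolipin enzymes 1 rose and 2 fell, and of another 17 genes supplying glycerol phosphate, acyl-CoA and choline 4 fell. Gpcpd1, which splits glycerophosphocholine into choline and glycerol 3-phosphate, had 86.0, 68.4 and 50.9 CPM in CREBH-KO and 173.9, 265 and 284.0 CPM in WT. It fell by 1.82 ± 0.22 on the log2 scale (SE, edgeR adjusted p = 0.00154), or 3.52-fold. Pnpla7, a lysophospholipase that yields glycerophosphocholine, fell by 0.56 ± 0.11, with 78.9, 88.3 and 82.2 CPM in CREBH-KO and 102, 131.7 and 133.4 CPM in WT (edgeR adjusted p = 0.0149). For both genes no library overlapped between the groups, and Pnpla7 did not pass without WT 2 or CREBH-KO 3 (highest adjusted p 0.0676).

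Etnppl, a lyase that breaks down phosphoethanolamine, the product of the ethanolamine kinases, rose. It had 410.8, 557.4 and 656.7 CPM in CREBH-KO and 334.5, 232 and 308.4 CPM in WT (log2 fold change 0.89 ± 0.18, SE, edgeR adjusted p = 0.0160). The CREBH-KO libraries were spread widely and lay above WT, and the call did not hold without WT 2, CREBH-KO 2 or CREBH-KO 3 (highest adjusted p 0.0645). Gpd2, the mitochondrial glycerol 3-phosphate dehydrogenase, fell by 0.61 ± 0.12, with 21.5, 22.2 and 16.9 CPM in CREBH-KO and 28.2, 34.01 and 30.2 CPM in WT (edgeR adjusted p = 0.0161, and 0.0701 without WT 2 or 0.0517 without CREBH-KO 3). Awat2, an acyltransferase of wax and retinyl esters, was scarce and fell, with 0.322, 0.338 and 0.612 CPM in CREBH-KO and 1.27, 0.970 and 1.27 CPM in WT (-1.45 ± 0.38, SE, edgeR adjusted p = 0.0402), which held without CREBH-KO 3 but not without any 1 of the others (highest adjusted p 0.134). Gpd1l (-0.35, edgeR adjusted p = 0.0332) and the very long chain acyl-CoA synthetase gene Slc27a2 (-0.42, adjusted p = 0.0184) also fell and are named here after their values were seen.

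Of 14 genes for transcriptional regulators known to act on lipid synthesis, Creb3l3 included, 5 fell, against 6.46% of all genes, and none rose, against 3.91%. Of the 5, 1 is Creb3l3 itself, which the genotype fixes. The list was chosen with earlier results of these data known, so its share is no test. Besides Creb3l3 (-3.29 ± 0.11, SE, edgeR adjusted p = 3.00e-06) these were Srebf1, the gene of SREBP-1 (-1.23 ± 0.15, adjusted p = 0.00147), the fasting receptor gene Ppara (-1.28 ± 0.14, adjusted p = 0.00114), Pparg, which drives lipid storage genes, and Insig2, which retains SREBP in the endoplasmic reticulum. Pparg had 5.06, 5.44 and 5.60 CPM in CREBH-KO and 13.1, 9.51 and 8.97 CPM in WT (log2 fold change -0.97 ± 0.17, SE, edgeR adjusted p = 0.00872). Insig2 had 239.6, 190.4 and 178.3 CPM in CREBH-KO and 282.8, 332 and 283.4 CPM in WT (-0.56 ± 0.12, edgeR adjusted p = 0.0212), which did not hold without WT 2, CREBH-KO 2 or CREBH-KO 3 (highest adjusted p 0.0901). Of the regulators that did not pass, 2 are named after their values were seen. The LXR-alpha gene Nr1h3, whose product induces Lpcat3, had 0.12 ± 0.07 (edgeR adjusted p = 0.358), and the coactivator gene Ppargc1a, known to induce Lpin1, had a lower estimate (-0.34 ± 0.12, edgeR adjusted p = 0.125).

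**Figure D5:**
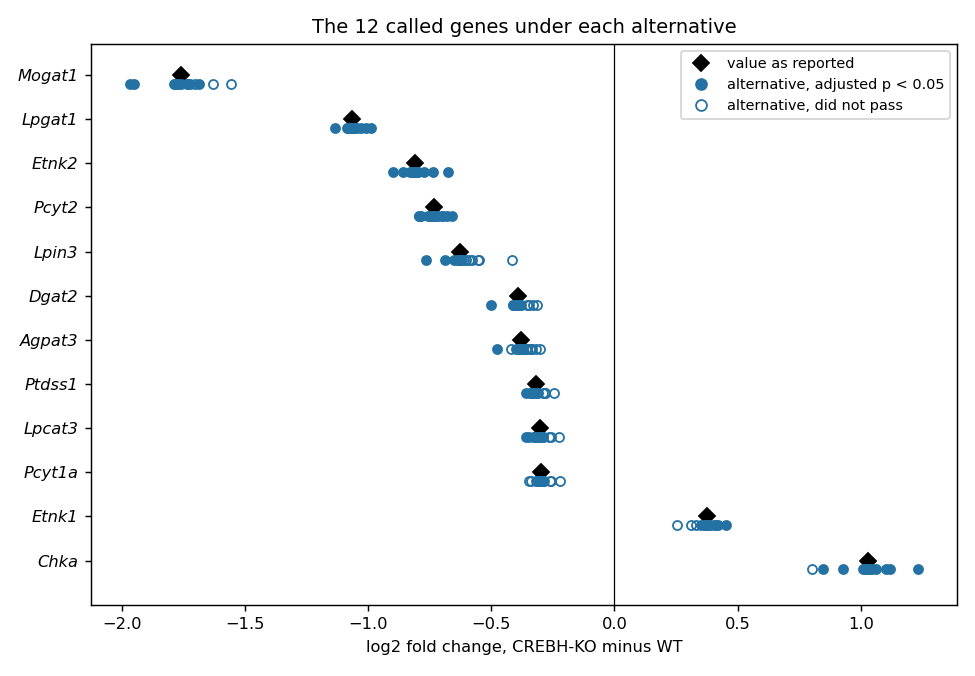
Log2 fold change (CREBH-KO minus WT, x axis) of the 12 genes that passed, as reported (black diamonds) and under each alternative (blue circles, open where the gene did not pass). Every circle lies on the same side of 0 as its diamond; Lpgat1 and Pcyt2 have filled circles only, and the genes between -0.63 and -0.30 have many open ones.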

How the data were processed

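Liver RNA of 6 samples with an RNA integrity number above 8 was read from both ends in 1 lane, per the labels' protocols. The authors deposited raw read counts per Ensembl gene made with HTSeq, per the labels' titles. No source used here names the aligner, genome build or strand setting. All 55536 identifiers matched GENCODE M21 (GRCm38), the source of symbols and exonic lengths. The 5 summary lines of each file (27.4% to 31.2% of its reads) were left out. With the strand setting unknown, overlapping antisense genes cannot be told apart.

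The whole table was fitted with edgeR 4.0.16 (R 4.3.3). Its filterByExpr filter (minimum count 10, minimum total 15) kept 15589 genes, TMM factors ran from 0.967 to 1.05, and the quasi-likelihood test had no covariate. Adjustment was by Benjamini-Hochberg. For edgeR fold changes, each SE is the size of the log2 estimate over the root of its F value. Ratios of 14 gene pairs, with 0.5 added to each count, were compared by exact permutation tests over libraries. The SE of a ratio difference comes from the variances of the log2 ratios within each genotype. Alternatives were DESeq2 1.42.0, limma-voom 3.58.1, a robust fit, other scalings and filters, and left-out libraries. The test was tried on simulated data for this comparison (15589 genes, 15234 past the filter). It found 49.3% of 67 genes set to 1.5-fold, 76.1% of 67 set to 2-fold and 98.5% of the 66 set to 4-fold, while 9.70% of what it called had not been changed. That share is above the 0.05 aimed at. The simulation changed only genes above a minimum level and led to 165 calls, against 1616 in the data. These rates may therefore not hold for the real comparison or for scarce genes. No 2 libraries of a genotype agreed within sampling noise (lowest chi-square over its degrees of freedom 16.9).

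The genes and lists were chosen with earlier results of these data known. All 34 genes are named, with further pathway genes past the threshold at an absolute log2 fold change of at least 0.5, Gpat3, Gpat4, Selenoi and Taz in any case, and regulators past the threshold; 1 further pathway gene that met this rule is not reported here. Promoter windows are RefSeq's.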

Additional observations from a re-analysis of the deposited data

How the results depend on the processing

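Of the genes described first, 12 passed as reported, 10 lower and 2 higher in CREBH-KO, and 9 of the further pathway genes, 7 lower and 2 higher. With upper-quartile factors and with library size alone 6 of the 12 passed, 4 lower and 2 higher; the scaling moved the median log2 fold change over all genes from 0.02 to 0.06 and 0.10. Of the further genes, DESeq2 called 14, 11 of them lower, and the fit without a filter on low counts called 15, 12 of them lower. DESeq2 called more of all genes too, 2123 (13.6%) against 1616 (10.4%) as reported. Without the filter 2456 of 28923 genes (8.49%) were called. With CREBH-KO 1 alone 2 of each list passed, all lower, and 0 were higher. Leaving out 1 library at a time gave 4 to 12 genes of the set (3 to 10 lower, 1 to 2 higher) and 2 to 10 further genes (2 to 7 lower, 0 to 3 higher), with 658 to 1806 calls over all genes; the cause was not tested.

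Signs turned for genes that did not pass as reported. With library size alone these were Dgat1 (0.032), Cept1 (0.024), Pemt (0.067, and 0.028 with upper-quartile factors), Pisd (0.022) and Crls1 (0.035). With CREBH-KO 1 alone they were Dgat1 (0.033), Cds1 (0.225), Cds2 (-0.059) and Selenoi (-0.049), and without a filter Cds2 (-0.003) and Selenoi (-0.005). When 1 library was left out, the ranges crossed 0 for Agpat2 (-0.207 to 0.011), Dgat1 (-0.095 to 0.039), Cept1 (-0.170 to 0.126), Pemt (-0.044 to 0.012), Pisd (-0.167 to 0.015), Cds2 (-0.067 to 0.069), Crls1 (-0.122 to 0.055), Lpcat4 (-0.015 to 0.106) and Selenoi (-0.109 to 0.154). No paired analysis was possible because the labels number the samples in 1 run across both groups and tie none to a litter, batch or day; the replicate numbers used here follow accession order and only name a sample. Depth limits the genes under 2 CPM: 3 counts correspond to 0.0775 to 0.101 CPM.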

Other observations

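Summed per kilobase over the genes of a step, the 9 genes of the CDP-choline and CDP-ethanolamine branches gave 360.0 ± 12.3 CPM per kb in CREBH-KO and 486.1 ± 24.2 CPM per kb in WT (SD, n = 3 each), without overlap. The sum follows its abundant genes Pcyt2 (94.2 in CREBH-KO and 156.7 in WT) and Etnk2 (79.99 in CREBH-KO and 140.2 in WT). Chka and Etnk1 rose and 4 genes did not pass, so the sum does not stand for every gene of the branches. The 6 lysophospholipid acyltransferases summed to 42.0 ± 1.07 in CREBH-KO and 66.0 ± 4.76 in WT, and the 2 DGAT genes to 134.2 ± 1.05 in CREBH-KO and 172.2 ± 20.7 CPM per kb in WT, also without overlap. The sums overlapped for the lipins, at 42.9 ± 4.11 in CREBH-KO and 62.3 ± 19.9 in WT, and for the CDP-diacylglycerol and cardiolipin genes, at 41.8 ± 1.89 in CREBH-KO and 42.5 ± 2.73 CPM per kb in WT. The acylglycerol-phosphate acyltransferases (122.2 in CREBH-KO and 139.2 in WT) and the phosphatidylserine genes (13.99 in CREBH-KO and 16.87 in WT) did not overlap. The sums of Gpam, Mogat1 and Mogat2 did (30.24 in CREBH-KO and 33.47 in WT). These sums are given as a description, with no test, and each is led by its most abundant gene. Of all single genes tested, 30.6% did not overlap.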
